A study of Mus musculus with 6 samples.

Results

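The 8 genes described here serve antigen presentation by class II molecules of the mouse major histocompatibility complex (MHC): H2-Aa, H2-Ab1, H2-Eb1, H2-DMa, H2-DMb1, Cd74, Ciita and Ctss. They were found by gene symbol in a table of 15092 genes, and all 8 of the 8 listed symbols were present. The table gives liver messenger RNA of C57BL/6J mice in 3 libraries titled as knockout of the circadian repressor gene Cry1 (CRY1 KO) and 3 titled as wild type (WT). All 6 titles carry the prefix NC, which the labels do not explain, and the labels name no age, sex, time of day, feeding state or knockout allele, and no treatment. Nothing in the labels says that the libraries of a group came from separate animals, so every p-value measures the spread between these libraries, which may be in part technical.

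Library totals lay between 79708703 and 87480152 estimated counts in CRY1 KO and between 83941470 and 91316332 in WT, and the 8 genes together took 0.0103% to 0.0136% of them in CRY1 KO and 0.014% to 0.0161% in WT. Cry1 itself stood at 561, 521 and 445 counts in CRY1 KO and at 413, 579 and 694 in WT, which is -0.03 on the log2 scale (SE 0.19, edgeR adjusted p = 0.954), so the knockout labels are not checked by the level of that gene as a whole and every direction below is that of the titles. The labels give the cell type as hepatocyte. Hepatocyte markers summed to between 83890 and 93650 CPM in CRY1 KO and between 76710 and 85500 CPM in WT, and markers of Kupffer cells, B cells and other leukocytes were present beside them in every library. CPM are counts relative to the library size, which was scaled with TMM (the trimmed mean of M values) so that most genes match between libraries.

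Class II molecules carry peptides from engulfed proteins to the surface of professional presenting cells, where CD4+ T cells read them. In liver these cells are the resident macrophages (Kupffer cells), dendritic cells and B cells, with some expression in sinusoidal endothelium, whereas hepatocytes carry little or none at rest. H2-Aa and H2-Ab1 encode the α and β chains of I-A, and H2-Eb1 encodes the β chain of I-E. C57BL/6 mice lack a working gene for the α chain of I-E, so the product of H2-Eb1 does not reach the surface in this strain. Cd74 encodes the invariant chain that fills the groove during transport, Ctss encodes cathepsin S, the protease that trims the invariant chain, and H2-DMa and H2-DMb1 encode the chains of H2-M, which exchanges the remaining fragment for peptide. Ciita encodes the transactivator of the class II chain genes, the H2-M genes and Cd74. It acts through the RFX, NF-Y and CREB proteins bound at their promoters.

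Class II promoters share an upstream module in which RFX binds the X1 box, CREB-type factors the X2 box and NF-Y the Y box. The sequences of 3 members are shown because they let this module be seen in the genes measured here, and that of Ctss because its promoter differs. They come from RefSeq promoters of build GRCm38.p6, while the submitters' processing notes name GRCm39 for the libraries, so their positions hold for GRCm38.p6 only. Each runs 5′ to 3′ in the sense of its gene. Capitals mark AGNNACNGATG (X1 form) or TGACG (X2 core) and then ATTGG (Y box core) in the first 3, and GAAANNGAAA (core of the interferon-stimulated response element, ISRE) in Ctss.
H2-Aa: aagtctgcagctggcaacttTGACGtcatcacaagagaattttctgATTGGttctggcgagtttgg
H2-Eb1: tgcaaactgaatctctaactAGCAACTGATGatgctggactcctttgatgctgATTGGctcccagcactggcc
H2-DMb1: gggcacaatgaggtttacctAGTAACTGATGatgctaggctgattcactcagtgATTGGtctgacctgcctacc
Ctss: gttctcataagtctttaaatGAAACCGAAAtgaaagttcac

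These stretches lie at chr17:34287852-34287917 on the minus strand (H2-Aa), chr17:34305755-34305827 on the plus strand (H2-Eb1), chr17:34153076-34153149 on the plus strand (H2-DMb1) and chr3:95526745-95526785 on the plus strand (Ctss). The Y box core began 48 bases before the annotated start in H2-Aa, 59 bases before it in H2-Eb1 and 61 bases before it in H2-DMb1. Between the 2 capitalised motifs lay 21 bases in H2-Aa, 22 in H2-Eb1 and 23 in H2-DMb1. The 250 bases before each start were searched on both strands, and promoters of 9 of 13 class II genes were matched and described, 5 of them members. ATTGG was found in 8 of these 9 genes, against 37.5% of all 27025 genes with a promoter, and the X1 form followed by ATTGG within 10 to 100 bases was found in 4 (H2-Eb1, H2-DMb1, H2-Eb2 and H2-Oa), against 0.0851% of genes. TGACG was found in 1 of the 9 (H2-Aa), against 19.8% of genes, and GAAANNGAAA in 1 (Ctss), against 3.46%. A gene was counted where any of its promoters held the letters. The motifs were chosen from the letters these factors are known for and with the sequences in view, and a match describes letters, not binding.

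The chains of the surface molecules had lower mean levels in CRY1 KO, and none of the 3 genes passed edgeR's test over all genes, while DESeq2 called H2-Ab1 lower (adjusted p = 0.0488). H2-Ab1 stood at 13.9, 14.6 and 16.8 CPM in CRY1 KO 1, 2 and 3 and at 18.5, 22.9 and 18.9 CPM in WT 1, 2 and 3. Every CRY1 KO library lay below every WT library. Its log2 difference was -0.41 (SE 0.12, edgeR adjusted p = 0.113), with a 95% interval from limma of -0.69 to -0.13, which as a fold is 0.621 to 0.912. H2-Aa, the partner chain, stood at 13.02, 14.96 and 18.0 CPM in CRY1 KO and at 13.8, 19.9 and 18.5 CPM in WT. Here the groups overlapped, since WT 1 lay below CRY1 KO 2 and 3, and the log2 difference was -0.18 (SE 0.17, edgeR adjusted p = 0.569, interval -0.56 to 0.20).

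For H2-Eb1 the values were 9.14, 10.4 and 13.7 CPM in CRY1 KO and 13.2, 15.5 and 13.9 CPM in WT. CRY1 KO 3 lay within the WT range and the other 2 CRY1 KO libraries lay below it. The log2 difference was -0.36 (SE 0.16, edgeR adjusted p = 0.237, interval -0.73 to -0.02). In RNA pooled from many cells such a value cannot tell fewer presenting cells from less RNA per cell. The labels give the cell type as hepatocyte, and whether the libraries hold whole liver or isolated hepatocytes was not tested.

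Cd74, the most abundant of the 8 in CPM, stood at 43.1, 43.5 and 51.3 CPM in CRY1 KO and at 47.6, 62.0 and 51.8 CPM in WT. CRY1 KO 1 and 2 lay below the 3 WT libraries, while CRY1 KO 3 lay between WT 1 and WT 3. Its log2 difference was -0.23 (SE 0.12, edgeR adjusted p = 0.326), and the interval of -0.49 to 0.05 as a fold is 0.71 to 1.04.

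The H2-M genes, which edit the peptide, were low. H2-DMa stood at 2.64, 2.03 and 2.96 CPM in CRY1 KO and at 3.22, 3.08 and 2.45 CPM in WT. H2-DMb1 stood at 2.63, 2.08 and 2.16 CPM in CRY1 KO and at 2.49, 3.95 and 2.67 CPM in WT. Both pairs of groups overlapped, with log2 differences of -0.20 for H2-DMa (SE 0.22, edgeR adjusted p = 0.64, interval -0.69 to 0.28) and -0.41 for H2-DMb1 (SE 0.23, edgeR adjusted p = 0.358, interval -0.90 to 0.14). H2-DMb1 has a close copy, H2-DMb2, and its value depends on how the authors' tools shared reads between them.

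Ctss had the largest difference of the 8 with all libraries in the fit, but not without WT 1. The protease gene stood at 22.3, 22.6 and 22.0 CPM in CRY1 KO and at 49.1, 32.9 and 23.1 CPM in WT. The CRY1 KO libraries lay close together, and the WT libraries spread over a wide range whose lowest value, WT 3, was just above them. The log2 difference was -0.65 (SE 0.25, edgeR adjusted p = 0.215, limma interval -1.18 to 0.02). It was -0.32 without WT 1 (edgeR adjusted p = 0.255), smaller in size than the values of Ciita (-0.69), H2-DMb1 (-0.53), H2-Ab1 (-0.47) and H2-Eb1 (-0.41) without that library, and -0.87 without WT 3, where it passed (edgeR adjusted p = 0.0291).

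Ciita, the transactivator, was the least abundant, with 64, 43 and 69 counts in CRY1 KO and 54, 92 and 115 counts in WT. In CPM these are 0.793, 0.529 and 0.81 in CRY1 KO and 0.628, 1.09 and 1.2 in WT. WT 1 lay among the CRY1 KO libraries, and WT 2 and WT 3 lay above them. The log2 difference was -0.45 (SE 0.35, edgeR adjusted p = 0.494), and the interval of -1.20 to 0.37 was the widest of the 8.

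Of the 8 genes 0 passed edgeR's quasi-likelihood test at an adjusted p of 0.05, against 1.7% of all 13816 tested genes in either direction, 0.644% in the lower and 1.06% in the higher direction. At an unadjusted edgeR p under 0.05 there were 3, H2-Ab1, H2-Eb1 and Ctss, against 9.84% of tested genes that were lower at that level. DESeq2 called 1 of them lower, H2-Ab1 (adjusted p = 0.0488), against 3.97% of tested genes called lower by it, and 0 higher, against 5.32%. By limma 0 were lower, against 0.818% of tested genes, and 0 higher, against 1.38%. The log2 difference was negative in 8 of 8, against 52.7% of tested genes, and the median was -0.38, against -0.02 over all tested genes. Groups did not overlap in 2 of 8, with CRY1 KO below WT, against 12.7% of tested genes. Genes that share cells or a transactivator are not independent, so the count of negative values carries no p here.

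**Figure D1:**
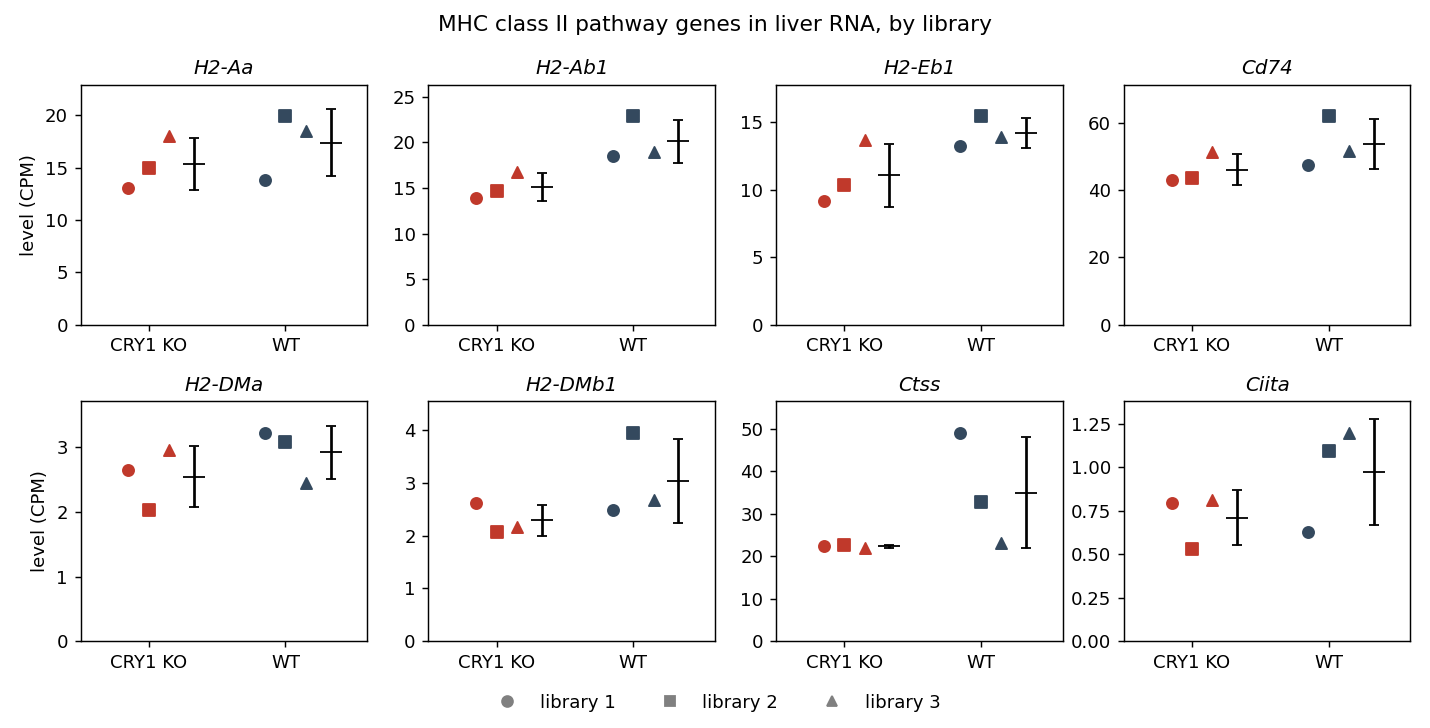
Level of each of the 8 class II pathway genes in CPM (vertical axes from 0), with CRY1 KO libraries left of WT libraries, a symbol for each library number, and mean ± SD of 3 libraries in black. H2-Ab1 and Ctss are the genes whose groups do not overlap, and for Ctss the 3 CRY1 KO libraries sit near 22 CPM while WT runs up to 49.1.

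Per length of exon, the order of the levels was the same in both groups except for H2-Aa and H2-Ab1. Exon lengths were taken from GENCODE M21, an annotation of another build than the submitters', so these levels are approximate. Cd74 had 32.5 ± 3.26 CPM per kb in CRY1 KO and 38 ± 5.23 in WT (SD, n = 3 each). Ctss had 16.4 ± 0.23 CPM per kb in CRY1 KO and 25.8 ± 9.68 in WT. The chain genes of I-A followed, H2-Aa at 13.6 ± 2.22 in CRY1 KO and 15.4 ± 2.85 in WT and H2-Ab1 at 12.5 ± 1.26 in CRY1 KO and 16.6 ± 1.99 in WT, and these neighbours overlapped in both groups. Ctss lay between Cd74 and H2-Aa without overlap in CRY1 KO, and in WT its libraries overlapped those of Cd74, H2-Ab1 and H2-Aa.

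Next came H2-Eb1, at 6.63 ± 1.4 CPM per kb in CRY1 KO and 8.51 ± 0.682 in WT. H2-DMb1 had 1.63 ± 0.211 in CRY1 KO and 2.16 ± 0.567 in WT, H2-DMa 0.953 ± 0.177 in CRY1 KO and 1.09 ± 0.154 in WT, and Ciita 0.0864 ± 0.0192 in CRY1 KO and 0.118 ± 0.037 in WT. From H2-Aa and H2-Ab1 down to Ciita, no library of a gene overlapped one of the next gene in its own group. The level of H2-DMa depends on 2668 bases of annotated exon and that of Ciita on 8225, which join alternative transcripts.

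**Figure D2:**
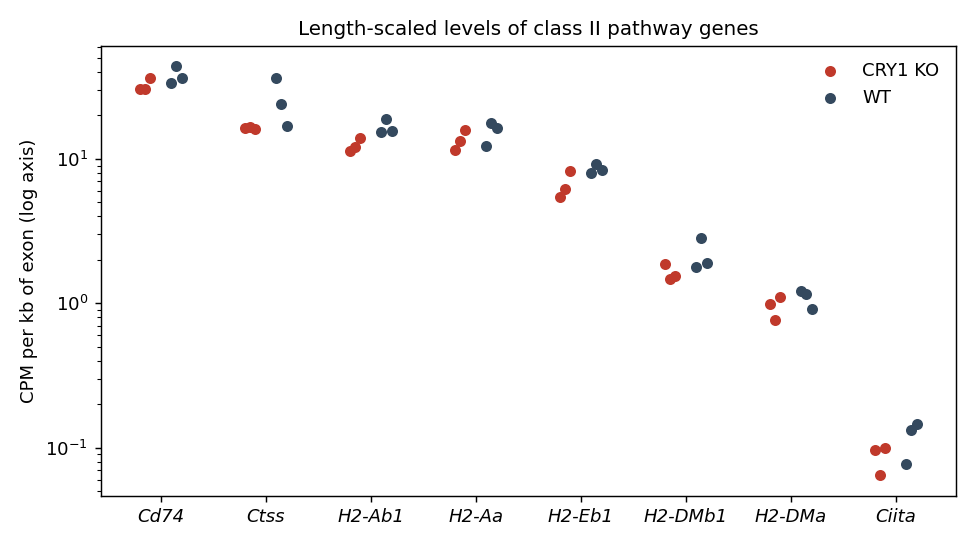
Levels per kb of exon (log axis) of the 8 genes, in order of the WT mean, with CRY1 KO points left of WT points and 1 point per library. The levels run from Cd74, at 30.5 to 36.3 in CRY1 KO and 33.6 to 43.8 in WT, to Ciita, at 0.0643 to 0.0985 in CRY1 KO and 0.0763 to 0.146 in WT.

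Ratios within a library, which do not depend on scaling, were compared for 10 pairs with an exact two-sided permutation test of the log2 ratio, where 3 against 3 libraries cannot go below p = 0.1. The ratio of H2-Aa to H2-Ab1 counts, the partner chains of I-A, was 0.94, 1.02 and 1.07 in CRY1 KO and 0.745, 0.871 and 0.977 in WT (log2 difference 0.23, exact p = 0.2, adjusted over the 10 ratios 0.667). Cd74 over the sum of the 3 chain genes was 1.2, 1.09 and 1.06 in CRY1 KO and 1.05, 1.06 and 1.01 in WT (log2 difference 0.10, exact p = 0.2). The H2-M genes over the I-A genes had nearly the same mean, 0.161 ± 0.0309 in CRY1 KO and 0.159 ± 0.0205 in WT (SD, n = 3 each, exact p = 1). Ctss over H2-Ab1 was 1.61, 1.55 and 1.31 in CRY1 KO and 2.66, 1.44 and 1.22 in WT, and WT 1 stood apart from the other 5 libraries. No ratio had an adjusted p below 0.667.

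Among other chains and editors, the low subunits of H2-O, which inhibits H2-M in B cells, had negative differences without passing. H2-Ob stood at 0.582, 0.381 and 0.646 CPM in CRY1 KO and at 0.523, 1.3 and 1.19 CPM in WT (log2 -0.90, SE 0.42, edgeR adjusted p = 0.264). H2-Oa had a log2 difference of -0.78 and H2-DMb2 of -0.30. H2-Eb2, a relative of H2-Eb1, was not tested for its low counts, which were 0 in the 3 CRY1 KO libraries and 14, 24 and 0 in WT. Of the 5 genes in this list 3 were tested, and 0 passed by edgeR, DESeq2 (which gave no adjusted p for 1) or limma, also at an unadjusted p under 0.05.

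Of 9 genes for the proteins that sit with the transactivator on the promoter, 1 fell and 8 did not pass by edgeR, against 0.644% of tested genes called lower. At an unadjusted edgeR p under 0.05, 2 were lower, against 9.84% of tested genes, and 1 was higher, against 10.9%. The counts of the lists below are to be read against these shares, and by DESeq2 against 3.97% lower and 5.32% higher. Nfyb, which encodes a subunit of NF-Y, the factor of the Y box shown above, fell to 17.7, 17.4 and 16.5 CPM in CRY1 KO, against 23.8, 29.7 and 33.3 CPM in WT (log2 -0.75, SE 0.13, edgeR adjusted p = 0.0349). The groups lay well apart. The genes of the other NF-Y subunits had log2 differences of 0.22 (Nfya) and 0.01 (Nfyc). Nfyb lost its call without CRY1 KO 1, 2 or 3 (edgeR adjusted p = 0.101, 0.152 and 0.16) and without WT 2 (0.146), with log2 differences between -0.77 and -0.72, and the cause was not tested.

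Rfxank, a subunit of RFX, stood at 14.5, 15.9 and 15.2 CPM in CRY1 KO and at 22.2, 23.8 and 19.4 CPM in WT. Every CRY1 KO library lay below WT, but the gene did not pass (log2 -0.52, SE 0.11, edgeR adjusted p = 0.0515), whereas DESeq2 (adjusted p = 0.00235) and limma (adjusted p = 0.0497) called it. Rfx5 and Rfxap, the other RFX subunits, had log2 differences of -0.19 and 0.21. Creb1 (0.22) and the coactivator gene Crebbp (0.34) were higher in every CRY1 KO library than in every WT library without passing. Groups did not overlap in 2 of the 9 with CRY1 KO below WT, against 12.7% of tested genes, and in 2 with CRY1 KO above WT, against 14.6%. The median of this list was 0.10.

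Of 10 tested genes of antigen processing in endosomes 0 passed by edgeR, DESeq2 or limma, with 2 at an unadjusted edgeR p under 0.05 (Lgmn and Cst3), 7 had negative differences and the median was -0.08. Lgmn, an asparagine-specific endosomal protease, stood at 45.6, 42.8 and 41.9 CPM in CRY1 KO and at 76.99, 59.6 and 46.6 CPM in WT (log2 -0.49, edgeR adjusted p = 0.154). As in Ctss, the CRY1 KO libraries lay close together below WT 3, and WT 1 was the highest. Cst3, which encodes the cathepsin inhibitor cystatin C, had a log2 difference of -0.23, and Ifi30, the lysosomal thiol reductase gene, of -0.31. Other cathepsin genes had values on both sides of 0, such as Ctsb (-0.24) and Ctsl (0.13), and their contrast with Ctss was not tested.

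In the list of class II traffic and turnover, 6 of 8 genes had positive differences and 0 passed by edgeR or limma, with 1 at an unadjusted edgeR p under 0.05. Marchf8, a membrane ubiquitin ligase known to draw class II molecules from the surface, stood at 83.6, 82.8 and 88.8 CPM in CRY1 KO and at 66.05, 68.9 and 73.8 CPM in WT. All 3 CRY1 KO libraries lay above WT (log2 0.29, SE 0.08, edgeR adjusted p = 0.106), and DESeq2 called it. Marchf1, the related ligase of presenting cells, was low and overlapped between the groups (log2 0.28). Rab7, a GTPase of late endosomes, had a log2 difference of 0.18.

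Interferon γ is the main inducer of Ciita outside professional presenting cells. Of 14 genes of its receptor, signalling and targets 0 passed by edgeR or limma, with 5 at an unadjusted edgeR p under 0.05, and DESeq2 (which gave no adjusted p for 1) called 3 lower, among them Irgm1 and Igtp, and 1 higher (Irf2). In this list 9 differences were negative and the median was -0.31. The induced GTPase gene Igtp stood at 13.9, 12.5 and 11.7 CPM in CRY1 KO and at 25.6, 25.3 and 15.05 CPM in WT (log2 -0.79, edgeR adjusted p = 0.0862). The groups did not overlap, and WT 3 was the lowest WT library.

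Irf2, a factor that competes with Irf1, had a positive difference, at 70.1, 68.4 and 78.1 CPM in CRY1 KO and 35.4, 37.7 and 58.9 CPM in WT (log2 0.71, edgeR adjusted p = 0.0995). The receptor genes Ifngr1 (-0.17) and Ifngr2 (0.10) and the kinase gene Jak2 (0.04) had differences near 0. Of 5 tested co-stimulation genes 0 passed by edgeR, DESeq2 (which gave no adjusted p for 3) or limma, with 1 at an unadjusted edgeR p under 0.05, and 4 had negative differences, among them Cd86, the ligand of CD28 (-0.68), and Cd274, which encodes PD-L1 (-0.76, edgeR adjusted p = 0.152). Across these 6 lists 1 of 49 tested genes was called (Nfyb), against 1.7% of all tested genes, and 28 had negative differences. Groups did not overlap in 10 of the 49 with CRY1 KO below WT, against 12.7% of tested genes, and in 10 with CRY1 KO above WT, against 14.6%.

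**Figure D3:**
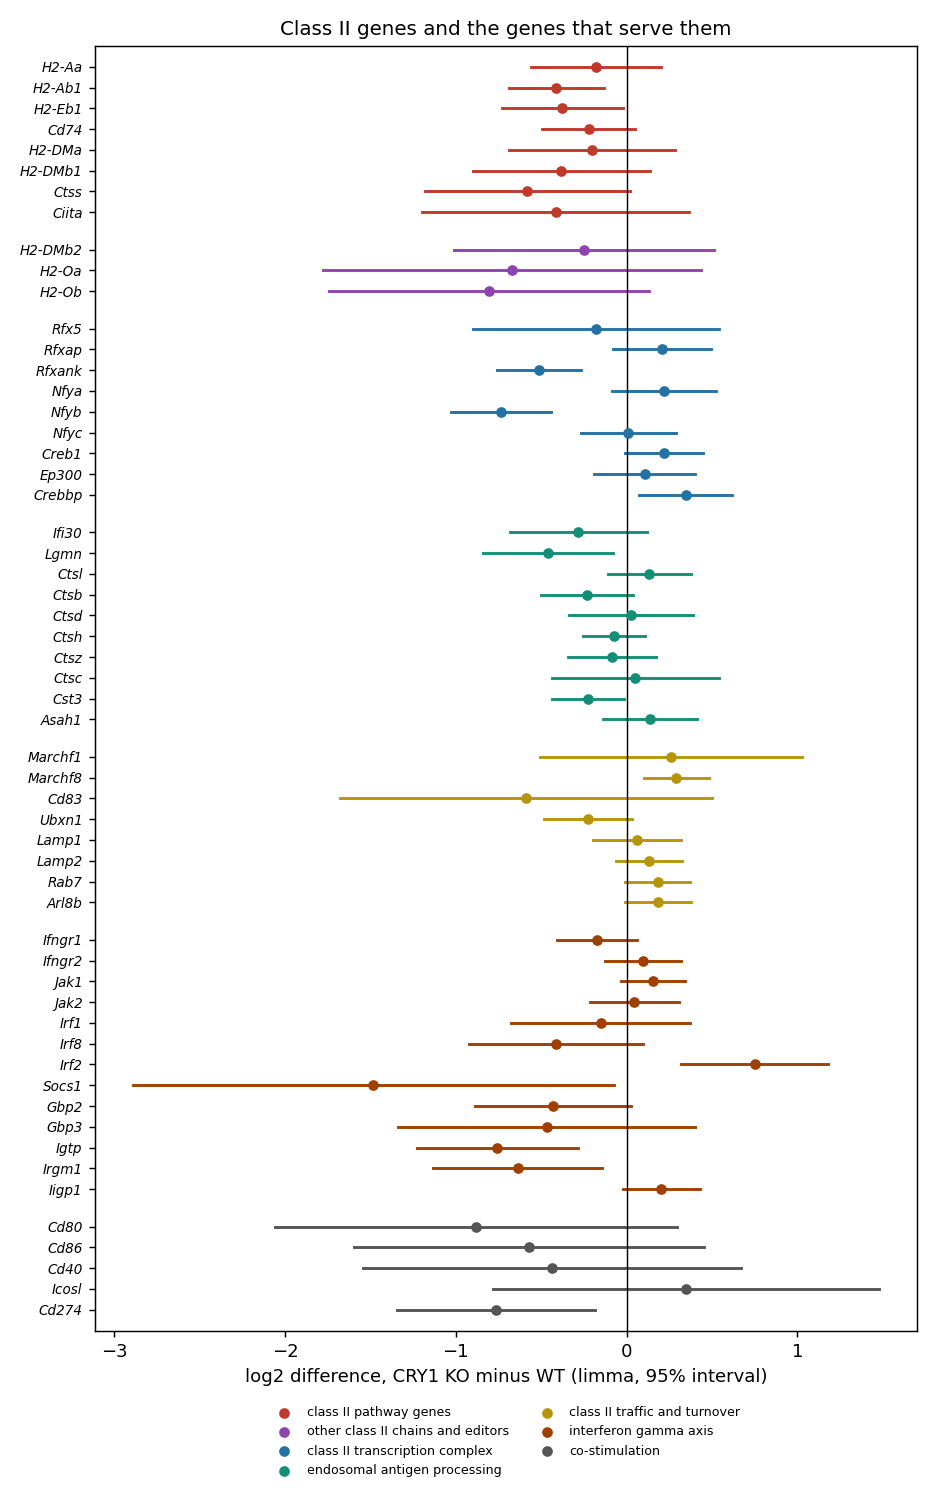
Log2 difference of CRY1 KO minus WT for the 8 class II pathway genes (top) and 48 of the 49 tested genes of 6 related lists, as limma estimates with 95% intervals. All 8 points of the top group lie left of 0, and the intervals of H2-Ab1 and H2-Eb1 do not reach it. Among the others the intervals of Nfyb, Rfxank and Irf2 do not reach 0, nor do those of several more, such as Igtp and Cd274.

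Markers of the presenting cells were read beside these values. Over all tested genes, 52.7% had a negative difference, 9.84% were lower and 10.9% higher at an unadjusted edgeR p under 0.05, and DESeq2 called 3.97% lower, and the counts of the marker lists are to be read against these shares. Of 14 Kupffer cell markers, none at 0 in any library, 14 had negative differences, 0 passed edgeR or limma, 9 had an unadjusted edgeR p under 0.05, and DESeq2 called 6 lower. Their summed level was 251.7 to 256.5 CPM in CRY1 KO and 695.9, 429.4 and 269.8 CPM in WT 1, 2 and 3. Groups did not overlap in 9 of the 14, with CRY1 KO below WT, against 12.7% of tested genes, and they overlapped in the others. Clec4f, a lectin of Kupffer cells and 1 of these 9, stood at 49.9, 52.3 and 48.2 CPM in CRY1 KO and at 135.8, 82.5 and 55.4 CPM in WT (log2 -0.86, edgeR adjusted p = 0.208). Ctss likewise was highest in WT 1, lower in WT 2 and lowest of the WT libraries in WT 3. The part of these cells in the results for Ctss was not tested.

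Monocyte and monocyte-derived macrophage markers had the same order over the WT libraries in their sum, but not in every marker. Of 8 tested markers 7 had negative differences, 0 passed edgeR or limma, 2 were lower at an unadjusted edgeR p under 0.05, and DESeq2 (which gave no adjusted p for 3) called 1 lower, the Fc receptor gene Fcgr1. Their sum was 42.4, 39.7 and 44.3 CPM in CRY1 KO and 95.2, 70.9 and 41.7 CPM in WT 1, 2 and 3, most of it from the lysozyme gene Lyz2, and Chil3, at 0 in 3 libraries, was not tested. Neutrophil markers were low, with sums of 2.39, 2.14 and 2.21 CPM in CRY1 KO and 7.72, 5.02 and 3.504 CPM in WT. Of 5 tested neutrophil markers 5 had negative differences, 0 passed edgeR or limma, 2 were lower at an unadjusted edgeR p under 0.05, and DESeq2 (which gave no adjusted p for 3) called both of the others lower, S100a9 and Csf3r.

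H2-Aa, H2-Ab1, H2-Eb1 and Cd74 did not follow that order. In 6 of the 8 genes WT 1, the library with the highest Kupffer marker sum, was the lowest WT library, Ctss and H2-DMa being the exceptions with WT 3 lowest. The sum of these 4 genes over the Kupffer marker sum was 0.314, 0.331 and 0.389 in CRY1 KO and 0.134, 0.28 and 0.382 in WT (exact permutation p = 0.4). Leukocyte markers at large (Ptprc, Coro1a, Laptm5, Cd53 and Cd52) summed to 23.7, 21.8 and 27.9 CPM in CRY1 KO and to 43.4, 36.2 and 26.9 CPM in WT, with 5 of 5 differences negative, 0 called by edgeR or limma (4 at an unadjusted edgeR p under 0.05) and 1 by DESeq2 (Cd52).

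B cell markers had another order. Of 9 tested markers 9 had negative differences and 0 passed by edgeR, DESeq2 (which gave no adjusted p for 5) or limma, with 2 at an unadjusted edgeR p under 0.05. Their sum was 5.1, 3.418 and 3.452 CPM in CRY1 KO and 3.76, 7.71 and 7.89 CPM in WT 1, 2 and 3. WT 1 lay within the CRY1 KO range and WT 2 and WT 3 lay above it, which is also the order of Ciita and H2-Ob. Ms4a1 and Cd79a, which are defining for B cells, had log2 differences of -0.05 and -0.15. No B cell marker was at 0 in a library, and their part in the class II values was not tested. Of 7 listed plasma cell genes 3 were tested, 3 had negative differences and 1 was called lower by edgeR, against 0.644% of tested genes. This was Jchain, which fell (log2 -2.45, edgeR adjusted p = 0.0194), while the others overlapped between the groups. Jchain lost its call without CRY1 KO 1, 2 or 3 (adjusted p = 0.0522, 0.105 and 0.115).

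Dendritic cell markers were low and showed no common direction. Of 13 tested markers 7 had negative differences, 0 passed by edgeR, DESeq2 (which gave no adjusted p for 9) or limma, and 1 was lower and 1 higher at an unadjusted edgeR p under 0.05. Their sum was 12.2, 11.04 and 15.1 CPM in CRY1 KO and 17.4, 10.6 and 12.5 CPM in WT. The groups overlapped in every marker of this list. Flt3, the growth factor receptor gene of these cells, had 0.31, 0.135 and 0.458 CPM in CRY1 KO and 0.43, 0.321 and 0.344 CPM in WT, and Cd209a was at 0 in WT 1. Sinusoidal endothelial markers had positive differences in 9 of 12 and 0 passed by these tools (4 at an unadjusted edgeR p under 0.05), with sums of 349.9 to 429.1 CPM in CRY1 KO and 347.7 to 369.2 CPM in WT.

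**Figure D4:**
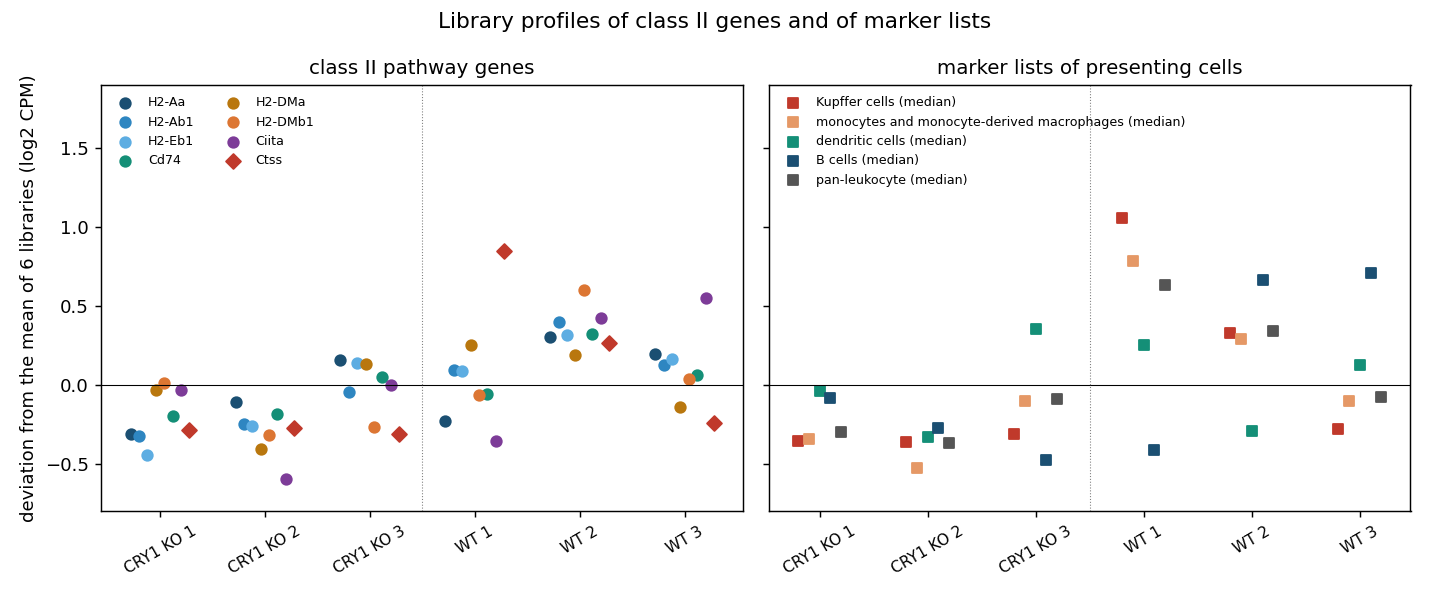
Deviation of each library from the mean of the 6 libraries (log2 CPM) for the 8 class II pathway genes (left) and for the median over markers of presenting cell types (right), with CRY1 KO libraries left of the dotted line and WT libraries right of it. In WT 1, Ctss (0.85) lies between the monocyte median (0.78) and the Kupffer cell median (1.05). The pan-leukocyte (0.64) and dendritic cell (0.25) medians lie above 0 as well, and the B cell median (-0.41) lies below. Of the other class II pathway genes, H2-DMa (0.25), H2-Ab1 (0.09) and H2-Eb1 (0.09) lie above 0 in WT 1. H2-Aa (-0.23), Ciita (-0.36), H2-DMb1 (-0.06) and Cd74 (-0.06) lie below it.

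Likeness between genes was measured as the root mean square difference of their centred log2 CPM over the 6 libraries, as a description with no test. To the mean profile of H2-Aa, H2-Ab1, H2-Eb1 and Cd74, these members lay at 0.101, 0.0762, 0.0787 and 0.06 in that order. These genes make up that mean, so their closeness to it was in part set in advance, unlike that of the other members. H2-DMa (0.225), H2-DMb1 (0.231) and Ciita (0.298) were farther, and Ctss was farthest at 0.421, beyond the median of 0.304 over 13808 other genes. The 8 nearest genes outside the list were Pnpla6 (0.0352), Gimap9 (0.0374), Rassf7 (0.0437), Gm9803 (0.0489), Ephb4 (0.0508), Pitpnm1 (0.052), Trip10 (0.0572) and Egln3 (0.058). To H2-Ab1 alone the nearest were Dynlt1c (0.0577), Gdpgp1 (0.0608), Vasp (0.0624), Mtfp1 (0.063), Gimap9 (0.0662), Rassf7 (0.0679), Pnpla6 (0.0698) and Pacsin3 (0.0731). None of these genes was called. Pnpla6, nearest to the mean profile, averaged 19.3 CPM in CRY1 KO and 24.6 CPM in WT (log2 -0.35, edgeR adjusted p = 0.208). Dynlt1c, nearest to H2-Ab1, averaged 3.06 CPM in CRY1 KO and 4.1 CPM in WT (log2 -0.42, edgeR adjusted p = 0.196). Gimap9, a gene of the immunity-associated GTPase family, had 6.96 CPM in CRY1 KO and 8.66 CPM in WT on average (log2 -0.32, edgeR adjusted p = 0.271). Whether the nearest genes share a cell type or function was not tested.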

How the data were processed

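The authors deposited 1 whole number per gene and library, taken here as estimated counts, because StringTie is named and more genes held the value 3 than 1, 2 or 4 in every library, unlike plain fragment counts. Per the submitters' processing notes, the build was GRCm39 (mm39), and the notes name StringTie 2.1.7, HISAT2 2.2.1, limma 3.42.2 and Trim Galore 0.6.7 without order or role. How strand was treated and which annotation was used is not given in the sources used here.

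Genes were filtered (filterByExpr, minimum count 10, minimum total 15), which kept 13816 of 15092 and all 8 members. Groups were compared with edgeR 4.0.16 (TMM, robust quasi-likelihood test) fitted to all tested genes, with Benjamini-Hochberg adjustment over them and a threshold of 0.05. SE is the log2 difference over the root of the F statistic. Intervals are from limma 3.58.1 on log2 CPM (prior count 2), and DESeq2 1.42.0 was an alternative. The procedure was run on simulated counts whose spread was taken from these same libraries. That run cannot show how the test performs on the uneven WT libraries.

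The genes, lists, motifs and tests were chosen with earlier results of these data known. The rule for named genes took the 8 members, called genes and the 2 smallest p in each list, defining markers of presenting cells and the 8 nearest profiles. Not every gene it took is reported: list counts, medians and sums include a few genes whose own values are not reported here. Nfya, Ctsl and some other list members were named after their values were seen. Sequences were read from RefSeq promoters (GRCm38.p6), where H2-Ab1, Cd74 and Ciita are named only.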

Additional observations from a re-analysis of the deposited data

How the results depend on the processing

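The log2 difference stayed negative for all 8 genes under the 12 alternatives run (DESeq2 size factors, no scaling, no filter, DESeq2, limma, a replicate block and each library left out). The number called lower was 0 with all libraries in edgeR, 1 by DESeq2 (H2-Ab1) and between 0 and 1 with a library left out (Ctss without WT 3). The number called higher was 0 throughout. Over these alternatives the log2 difference lay between -0.49 and -0.31 for H2-Ab1 (adjusted p 0.0488 to 0.315), between -0.33 and -0.07 for H2-Aa, between -0.53 and -0.24 for H2-Eb1, between -0.31 and -0.11 for Cd74, between -0.87 and -0.32 for Ctss (adjusted p 0.0291 to 0.446), between -0.69 and -0.28 for Ciita, between -0.32 and -0.06 for H2-DMa and between -0.53 and -0.17 for H2-DMb1.

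Over all genes, edgeR called 89 lower and 146 higher in CRY1 KO. These counts were 54 and 59 without scaling, 549 and 735 by DESeq2, and ran from 4 to 367 lower and from 12 to 477 higher with a library left out, where fewer libraries also lower the power. Same-numbered libraries did not deviate together over all genes (correlations of -0.07, -0.01 and 0.07), and other pairs ran from -0.09 to 0.10. The labels give no pairing, and such values cannot show whether the numbers pair the samples. With a replicate block 39 genes were lower and 55 higher, 0 members were called, and Nfyb had an adjusted p of 0.0796. Without scaling, and with no block, that of Nfyb was 0.0667. Cry1 changed sign with the library left out, from -0.19 without WT 1 to 0.088 without CRY1 KO 3 (0.04 without WT 2, 0.084 without WT 3). Ciita, H2-Oa and H2-Ob rest on low counts, and their intervals are too wide to show a change of the size seen in H2-Ab1.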

Other observations

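The profile of Ctss, taken up after its values were seen, was nearest to Ncf4 (root mean square difference 0.0418) and Csf1r (0.042), followed by Dnajc12, Cybb, Vsig4, Fcna, Fndc3b and Slc11a1 (0.0785). Csf1r, Vsig4 and Slc11a1 stand in the Kupffer cell list, Csf1r encodes the growth factor receptor of macrophages, and Ncf4 and Cybb encode parts of the phagocyte oxidase. Csf1r averaged 30.5 CPM in CRY1 KO and 46.6 CPM in WT (log2 -0.61, edgeR adjusted p = 0.21). Ctss over the Kupffer marker sum was 0.0888, 0.0897 and 0.0858 in CRY1 KO and 0.0706, 0.0766 and 0.0855 in WT, higher in 3 of 3 CRY1 KO libraries than in every WT library (log2 difference 0.19, exact permutation p = 0.1, the smallest that 3 against 3 libraries allow, 0.667 adjusted over 10 ratios). CPM of Ctss alone was lower in every CRY1 KO library.

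Of 10 hepatocyte markers read beside the class II genes, 1 was called higher by edgeR, against 1.06% of tested genes. In that list 5 differences were negative and the median was 0.06. The called gene, Hnf4a, which encodes a hepatocyte transcription factor, rose to 612.9, 717.1 and 710.5 CPM in CRY1 KO, against 479.1, 399.8 and 353.1 CPM in WT (log2 0.73, edgeR adjusted p = 0.0389). Its call was lost without CRY1 KO 1, 2 or 3 or WT 2 (edgeR adjusted p = 0.089, 0.16, 0.164 and 0.168) and with a replicate block (0.0843). Haemoglobin and other red cell markers summed to 675.8, 581.2 and 734.9 CPM in CRY1 KO and to 2977, 1024 and 654.4 CPM in WT 1, 2 and 3, so WT 1 stood apart in these genes as well.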
